A study of Mus musculus with 6 samples.

Results

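The genes described here are the 4 chains of the receptors for type I and type II interferon (Ifnar1, Ifnar2, Ifngr1 and Ifngr2), the 4 Janus kinases (Jak1, Jak2, Jak3 and Tyk2) and the 2 interferon genes Ifnb1 and Ifng. These 10 genes were chosen by name and are 10 of the 26012 genes measured. The study sequenced polyadenylated RNA from ventricles of 6 hearts of male C57BL/6 mice, 8 weeks old at surgery, to ask how miR-19a/19b changed gene expression early after myocardial infarction (MI). In all 6 mice the left anterior descending coronary artery was ligated, and the heart was taken on day 4. During surgery 3 hearts received 10 μg of miR-19a/19b mimic and 3 received 10 μg of control mimic, both into the heart wall. They are called control hearts and miR-19a/19b hearts below, numbered by replicate. A mimic is a short synthetic double-stranded RNA that stands in for the mature miRNA. Since the groups share the infarct and the injection and no uninjured heart was analysed here, the comparison is between 2 kinds of infarcted, injected heart. Each library is from ventricular tissue, of a zone the labels do not give, and such tissue after MI holds muscle, fibroblasts, vessels and infiltrating leukocytes.

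Interferons act on neighbouring cells through paired receptor chains. Type I interferons, among them interferon beta from Ifnb1, bind IFNAR1 and IFNAR2, which carry the kinases TYK2 and JAK1. Interferon gamma, the product of Ifng made mainly by T cells and natural killer (NK) cells, binds IFNGR1 and IFNGR2, which carry JAK1 and JAK2. The kinases phosphorylate transcription factors of the STAT family, among them STAT2, which works together with IRF9, and these enter the nucleus and switch on interferon-induced genes. JAK3 instead pairs with the common gamma chain of the receptors for interleukin-2 and its relatives, in lymphoid and myeloid cells.

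The 2 injected miRNAs carry the same seed, the bases with which a miRNA pairs to its targets. Their mature sequences, from RefSeq on GRCm38.p6, are shown with the seed (bases 2 to 8) in capitals. They differ at 1 base, U11C counted from the 5′ end and read from miR-19a to miR-19b. The miR-19a sequence lies at chr14:115044048-115044070, and that of miR-19b both at chr14:115044358-115044380 on the plus strand and at chrX:52741991-52742013 on the minus strand.
mmu-miR-19a-3p: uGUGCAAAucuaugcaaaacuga
mmu-miR-19b-3p: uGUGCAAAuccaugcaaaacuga

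The longest 3′ UTR of each gene in GENCODE M21 (GRCm38) was searched, on the transcript strand only, for TTTGCACA (an 8-mer) and for 2 7-mers within it, TTTGCAC and TTGCACA. Of the 10 receptor, kinase and interferon genes, 0 held a match, while 2907 of the 15820 tested genes with a 3′ UTR (18.4%) held one. Further along the pathway, the UTRs of the transcription factor gene Stat2 and of the inhibitor genes Socs1 and Socs3 each held 1 copy of the 8-mer. Among the same lists, 7-mers were in Usp18 (1), Ptpn11 (1), Stat5a (1) and Stat5b (2). The 8-mer sites are shown with the match in capitals and with flanking bases, because their genes are the ones compared with the receptors below. A match is a description of the letters and does not show that the miRNA binds there.
Stat2, chr10:128292212-128292239, plus strand: catcatttctTTTGCACAgtgttttgtt
Socs1, chr16:10783922-10783949, minus strand: tcccagtatcTTTGCACAaaccaggggt
Socs3, chr11:117966149-117966176, minus strand: caactcagacTTTGCACAtatatttata

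Values are normalized counts, that is, reads on a gene after division by the size factor of that library. Reads counted on genes came to between 19398196 and 23645308 a heart. Limma was run on log2(normalized count + 1) for 21126 genes whose mean was 1 or more, and differences are given as miR-19a/19b mimic minus control mimic on that log2 scale. In this comparison 0% of the genes tested passed an adjusted p-value of 0.05 (0 lower, 0 higher), 4.01% had an unadjusted p-value under 0.05 (555 lower, 293 higher), and the ranges of the 2 groups did not overlap for 9.2%. Lower with the miR-19a/19b mimic were 2.63% at the unadjusted threshold and 5.3% by separate ranges. Cardiac muscle transcripts were abundant in every library, with 10 cardiomyocyte markers summing to between 340847 and 1026110 normalized counts. The miR-19a/19b heart 3 had the lowest of these sums and replicates 1 and 2 of the same group the highest, and control hearts lay in between. Replicate 1 of the miR-19a/19b mimic group also held 3543 normalized counts summed over 14 skeletal muscle genes, where the other hearts held between 37.1 and 76.1.

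Transcripts of the interferon genes themselves were at the edge of detection. Ifnb1 (chromosome 4 from 88522025 to 88522774, minus strand) had 6 reads in control heart 2 and 0 in each of the other hearts. Its mean was under the filter, so it was not tested. Summed over a group, 6 reads (exact 95% Poisson interval 2.20 to 13.1) among 64241306 stand against 0 reads (0 to 3.69) among 66269256. These intervals cover counting error only, and their overlap is not a test of a difference. All 6 reads came from control heart 2, so no difference between the groups can be judged from them.

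Ifng (chromosome 10 from 118441047 to 118445892, plus strand) had 1.11, 1.95 and 0.934 normalized counts in control hearts 1, 2 and 3, and 1.08, 2.06 and 1.73 in the miR-19a/19b hearts. Every heart had 1 to 2 reads, and the groups overlapped. The log2 difference was 0.18 with a 95% interval from -0.99 to 1.35. At 1 to 2 reads the 1 added before the logarithm shrinks differences, so this interval does not bound the fold change of Ifng. In all, 9 reads were counted, 4 in control hearts (exact Poisson interval 1.09 to 10.2) and 5 in miR-19a/19b hearts (1.62 to 11.7). Of 19 other interferon ligand genes on a list, 2 were in the table, Ifnab and Ifnz, with at most 3 reads in any heart; the others were not analysed here. Markers of the cells that make interferon gamma were measurable. The 9 NK cell markers summed to 410, 454 and 240 normalized counts in control hearts and to 130, 212 and 167 in miR-19a/19b hearts. All 3 sums with the miR-19a/19b mimic were below all 3 control sums (exact permutation p = 0.1, the smallest that 3 hearts against 3 can give). The sum of 10 T cell markers overlapped, with 2153 to 2325 normalized counts in control hearts and 1952 to 2286 in miR-19a/19b hearts, but most of it was Thy1, which fibroblasts and other cells also express (1712 to 2052 over the 6 hearts). The other 9 markers, split off after the values were seen, summed to 323, 357 and 274 in control hearts and 251, 239 and 233 in miR-19a/19b hearts, again without overlap (exact permutation p = 0.1). Markers of plasmacytoid dendritic cells, a source of type I interferon, summed over 4 genes to 53.1 to 56.6 normalized counts in control hearts and 35.4 to 53.8 in miR-19a/19b hearts, and overlapped. In bulk tissue, fewer cells of a type and less RNA per cell cannot be told apart.

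The receptor chains and kinases were all well measured, with between 926 and 4883 reads in each heart. Per kilobase of gene length, the order in control hearts ran from Ifngr1 (1195 ± 76.4 normalized counts per kb, SD, n = 3) through Ifngr2 (704 ± 13.1), Jak1 (598 ± 11.1), Jak3 (430 ± 18.0), Ifnar2 (366 ± 39.8), Ifnar1 (313 ± 33.4) and Jak2 (294 ± 8.66) to Tyk2 (259 ± 6.32). Both interferon gamma receptor chains therefore stood above both interferon alpha/beta receptor chains. In control hearts the ranges of Ifnar2 and Ifnar1 overlapped, as did those of Ifnar1 and Jak2, and the other neighbours in the order did not overlap. The same order held in miR-19a/19b hearts, where Ifnar2 and Ifnar1 overlapped, as did Jak2 and Tyk2. The ligand genes were far below, with 2.60 normalized counts per kb for Ifnb1 in control hearts and 1.34 for Ifng in miR-19a/19b hearts.

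**Figure D1:**
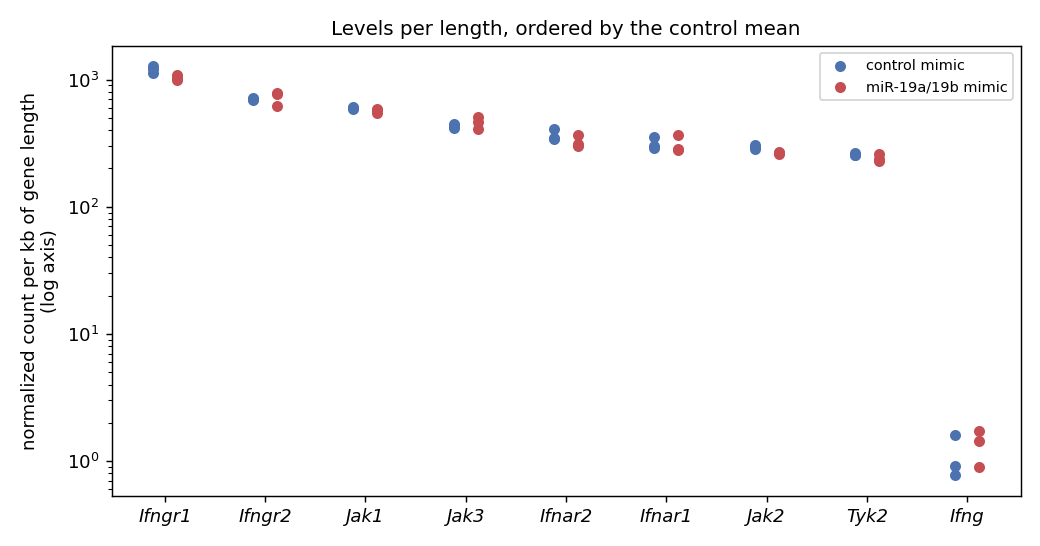
Normalized counts per kilobase of gene length (log axis) of the receptor chains, Janus kinases and Ifng in each heart, ordered by the control mean; blue points are control hearts and red points miR-19a/19b hearts, 3 each. The 8 receptor and kinase genes lie between 228 and 1269, and Ifng between 0.774 and 1.71; Ifnb1 is left out because it is 0 in 5 hearts.

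The receptor genes Ifnar1, Ifnar2 and Ifngr2 lie close together. On the plus strand of chromosome 16, Ifnar2 (91372783 to 91405589), Il10rb (91406164 to 91425834), Ifnar1 (91485238 to 91507441) and Ifngr2 (91547072 to 91565169) follow each other within 192387 bases. Il10rb encodes the chain shared by the receptors for interleukin-10 and interferon lambda. Their values in each heart follow.

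Ifnar1 encodes the chain that carries TYK2. It had 1767, 2065 and 1695 normalized counts in control hearts and 1676, 1631 and 2164 in miR-19a/19b hearts. Its highest and its lowest values were both in miR-19a/19b hearts, replicates 3 and 2, so the groups overlapped over their whole range. The difference on the log2 scale was -0.02 (95% interval -0.33 to 0.29), and its sign turned when control heart 2 (0.06), miR-19a/19b heart 1 (0.03) or miR-19a/19b heart 2 (0.05) was left out.

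Ifnar2 encodes the chain that carries JAK1. Its values were 1147, 1370 and 1135 in control hearts and 996, 1043 and 1219 in miR-19a/19b hearts. Replicates 1 and 2 of the miR-19a/19b mimic lay below all controls and replicate 3 lay among them. The log2 difference was -0.16 (95% interval -0.44 to 0.11, unadjusted p = 0.206 in limma). In the annotation 315 exonic bases of Ifnar2 are shared with Gm21970, a gene model that was not analysed here. Within each heart, the ratio of Ifnar1 to Ifnar2 per kilobase was 0.872, 0.853 and 0.845 in control hearts and 0.953, 0.885 and 1.01 in miR-19a/19b hearts. All 3 ratios with the miR-19a/19b mimic were above all 3 control ratios (exact permutation p = 0.1, the smallest possible), one of 5 ratios compared, and after adjustment over 5 it cannot pass.

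Ifngr1, which encodes the chain of the interferon gamma receptor that binds the ligand and carries JAK1, showed the largest difference among the 8 genes. It lies on chromosome 10 from 19591949 to 19610229 on the plus strand. Its values were 3416, 3613 and 3178 in control hearts and 2824, 2921 and 3080 in miR-19a/19b hearts. All 3 miR-19a/19b hearts were below all 3 controls. The group means, 3402 ± 218 and 2942 ± 129 (SD, n = 3), stood -13.5% apart relative to the control mean. The log2 difference was -0.21 (standard error 0.10, 95% interval -0.44 to 0.02), with an unadjusted p-value of 0.0700 and an adjusted p-value of 0.9996 in limma. The exact permutation p was 0.1, the smallest the design allows.

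Ifngr2, which encodes the signalling chain that carries JAK2, was above the controls in 2 hearts. It had 2367, 2284 and 2346 normalized counts in control hearts and 2604, 2539 and 2054 in miR-19a/19b hearts. Controls lay within a coefficient of variation of 1.86%, whereas miR-19a/19b hearts 1 and 2 were above all of them and replicate 3 below all of them. On the log2 scale the groups differed by 0.03 (95% interval -0.23 to 0.29), with the sign turned when miR-19a/19b heart 1 (-0.03) or 2 (-0.01) was left out. The ratio of Ifngr1 to Ifngr2 per kilobase was 1.68, 1.84 and 1.58 in control hearts and 1.26, 1.34 and 1.75 in miR-19a/19b hearts. Of the latter, replicates 1 and 2 were below every control and replicate 3 lay among the controls (exact permutation p = 0.3). Between Ifnar2 and Ifnar1, Il10rb had 957 to 1094 normalized counts in control hearts and 978 to 1030 in miR-19a/19b hearts, a log2 difference of -0.01 (95% interval -0.23 to 0.21).

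**Figure D2:**
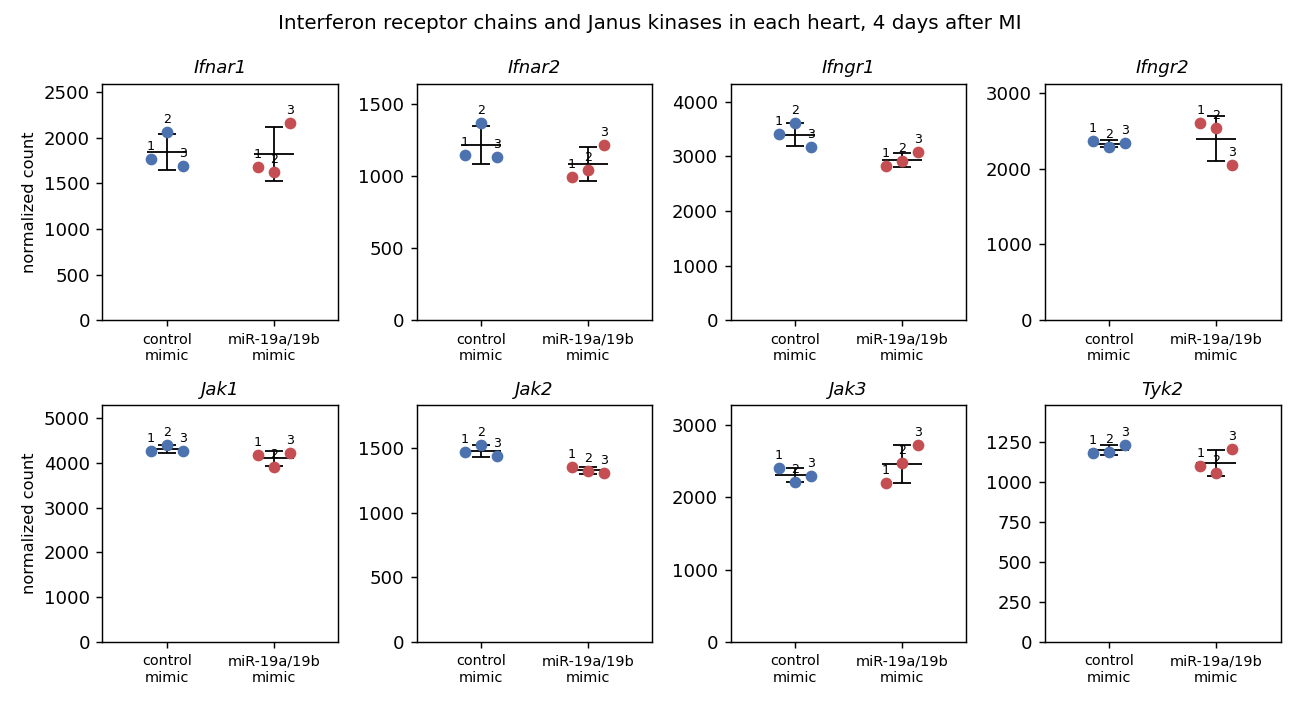
Normalized counts of the 4 receptor chains (top) and the 4 Janus kinases (bottom) in each heart; points are hearts, numbered by replicate, the horizontal bar is the group mean and the error bar the SD of 3 hearts. The groups do not overlap for Ifngr1, Jak1 and Jak2, which are lower with the miR-19a/19b mimic, and replicate 3 of that group lies apart from replicates 1 and 2 for Ifnar1 and Ifngr2.

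Jak1, the kinase used by both interferon receptors, lies on chromosome 4 from 101152367 to 101265282 on the minus strand. It had 4265, 4411 and 4280 normalized counts in control hearts and 4181, 3916 and 4221 in miR-19a/19b hearts. The groups did not overlap, though the highest miR-19a/19b heart and the lowest control were close. Jak1 differed by -0.07 on the log2 scale (95% interval -0.30 to 0.15, unadjusted p = 0.475 in limma).

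Jak2, the kinase of IFNGR2 and of many cytokine receptors, lies on chromosome 19 from 29251828 to 29313080 on the plus strand. Its values were 1470, 1526 and 1441 in control hearts and 1358, 1320 and 1309 in miR-19a/19b hearts. Again all miR-19a/19b hearts were below all controls, and replicate 3 was not set apart from its group. The means were 1479 ± 43.6 and 1329 ± 25.8 (SD, n = 3), and the log2 difference was -0.15 (standard error 0.09, 95% interval -0.36 to 0.05). In limma the unadjusted p-value was 0.118 and the adjusted p-value 0.9996.

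Tyk2, the kinase of IFNAR1, lies on chromosome 9 from 21104069 to 21127346 on the minus strand. It had 1176, 1185 and 1230 normalized counts in control hearts and 1096, 1052 and 1207 in miR-19a/19b hearts. Replicate 3 of the miR-19a/19b mimic was among the controls and replicates 1 and 2 were below them. For Tyk2 the log2 difference came to -0.10 (95% interval -0.32 to 0.12). An antisense gene, 1700084C06Rik, shares 554 exonic bases with Tyk2 and had at most 5.53 normalized counts in any heart. Counting by strand is not stated for these files.

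Jak3, which does not serve the interferon receptors, lies on chromosome 8 from 71676296 to 71690575 on the plus strand. It had 2406, 2215 and 2288 normalized counts in control hearts and 2196, 2468 and 2726 in miR-19a/19b hearts. The groups overlapped, with the lowest and the highest hearts both in the miR-19a/19b mimic group. For Jak3 the log2 difference came to 0.09 (95% interval -0.16 to 0.34). Insl3, which shares 404 exonic bases with Jak3 on the same strand, had between 41.1 and 101 normalized counts. How reads on the shared bases were counted is not stated, so their effect on the Jak3 values is not known. The ratios per kilobase of Jak1 to Tyk2, of Jak1 to Jak2 and of Jak3 to Jak1 overlapped between the groups (exact permutation p = 0.5, 0.2 and 0.3).

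Of the 9 genes tested, 0 passed either the adjusted or the unadjusted threshold, against 0% and 4.01% of all genes. Group ranges were separate for 3 of the 9 (Ifngr1, Jak1 and Jak2, all lower with the miR-19a/19b mimic), which is 33.3% where 9.2% of all genes tested did not overlap and 5.3% did so with lower values; with 9 genes that share the same 6 hearts this was not tested. Across the 8 receptor and kinase genes the log2 differences ran from -0.21 to 0.09, with a median of -0.09 where the median of all genes tested was 0.00. The median standard error was 0.11, where that of all genes tested was 0.21. All 8 of the 95% intervals lay within a 1.5-fold change in either direction, the widest bounds being 0.738-fold and 1.27-fold. With miR-19a/19b heart 3 left out, limma gave a median of -0.14 over the tested genes and 2 genes with an unadjusted p-value under 0.05, Ifnar2 and Ifngr1, both lower, with a smallest adjusted p-value of 0.244. In that setting 14.5% of all genes tested had an unadjusted p-value under 0.05, and 6.12% were lower at it. Without that heart 154 genes were lower and 361 higher at an adjusted p-value under 0.05 over all genes.

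Genes further along the pathway were set beside the receptors and kinases, without a test of one list against another. Of the 7 genes described here from the STAT factors and Irf9, 2 were lower at an unadjusted p-value under 0.05 and 0 higher, and 0 passed adjustment, against 2.63% lower among all genes. They were Stat2 and Irf9, whose products act together in the response to type I interferon. Stat2 had 1850, 2204 and 2028 normalized counts in control hearts and 1102, 1438 and 1523 in miR-19a/19b hearts, a log2 difference of -0.59 (95% interval -0.91 to -0.28). Every miR-19a/19b heart was below every control. Irf9, whose product contacts DNA, had means of 1567 ± 113 and 1246 ± 137 normalized counts and a log2 difference of -0.33 (95% interval -0.60 to -0.07); its 3′ UTR held no seed match. The adjusted p-values in limma were 0.815 and 0.9996. Without miR-19a/19b heart 1, or without control heart 2 or 3, Irf9 no longer had an unadjusted p-value under 0.05. The other 5 factors, Stat3, Stat4, Stat5a, Stat5b and Stat6, had log2 differences between -0.04 and 0.19.

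**Figure D3:**
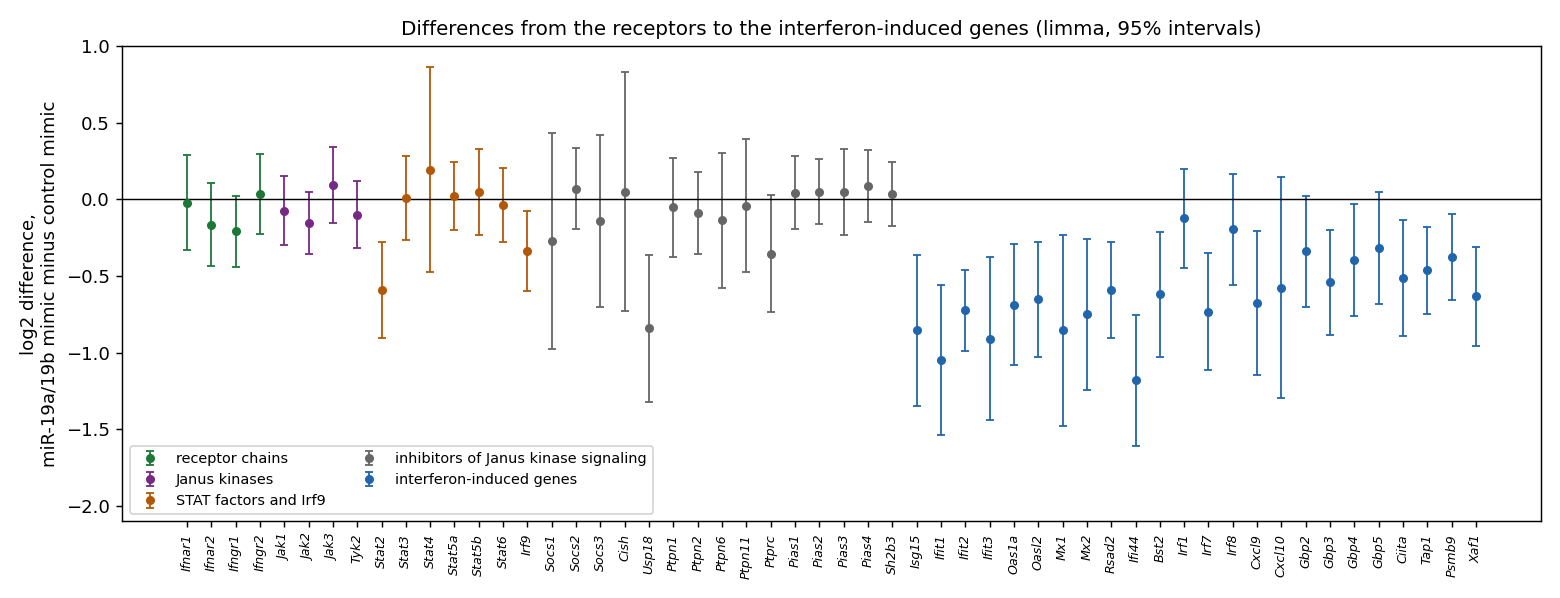
Log2 differences (miR-19a/19b mimic minus control mimic) with 95% intervals from limma, 3 hearts against 3, for the receptor chains, the Janus kinases, the STAT factors with Irf9, inhibitors of the pathway and interferon-induced genes. The receptor and kinase points lie between -0.21 and 0.09 with narrow intervals, Stat2, Irf9 and Usp18 lie between -0.84 and -0.33, and all 24 interferon-induced genes lie below 0. In limma no gene passed an adjusted p-value of 0.05.

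Among 15 inhibitors of Janus kinase signalling, 1 was lower and 0 higher at an unadjusted p-value under 0.05. Of all genes tested 2.63% were lower at it. Differences were negative for 8 and positive for 7 of the inhibitors, with a median of -0.04. The 1 lower gene was Usp18, itself interferon-induced, whose product binds IFNAR2 and displaces JAK1. It had 472, 726 and 467 normalized counts in control hearts and 238, 318 and 367 in miR-19a/19b hearts, with no overlap. Its log2 difference was -0.84 (95% interval -1.32 to -0.36, adjusted p = 0.877 in limma). Socs1, which blocks the kinases directly and holds the 8-mer shown above, had 115, 143 and 90.6 normalized counts in control hearts and 58.1, 105 and 138 in miR-19a/19b hearts. Its groups overlapped, with the lowest heart at replicate 1 of the miR-19a/19b mimic, and the log2 difference was -0.27 (95% interval -0.97 to 0.43). For Socs3, which holds the same 8-mer, the log2 difference was -0.14 (95% interval -0.70 to 0.42).

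Of 24 interferon-induced genes, 19 were lower and 0 higher at an unadjusted p-value under 0.05, where 2.63% of all genes tested were lower. In limma 0 passed adjustment, and the median log2 difference was -0.63. All 24 differences were negative, from -1.18 for Ifi44 to -0.13 for Irf1. Ifit1, whose product binds viral RNA, had 1192 ± 240 normalized counts in control hearts and 583 ± 153 in miR-19a/19b hearts (SD, n = 3). Isg15, which encodes a ubiquitin-like protein, had 1260 ± 117 and 720 ± 220. The chemokine gene Cxcl9 had a log2 difference of -0.68 and Ciita, whose product regulates MHC class II genes, of -0.51. The 5 genes that missed the unadjusted threshold were Irf1, Irf8, Cxcl10, Gbp2 and Gbp5, with log2 differences between -0.58 and -0.13. These are genes of one pathway in the same hearts and not independent observations. The list was chosen with earlier results of these data known, so its count beside the share of all genes is a description and not a test. When single hearts were left out, from 17 to 23 of the 24 were lower at that threshold. Without miR-19a/19b heart 3, 9 of them passed an adjusted p-value of 0.05 in limma. Without that heart 6.12% of all genes tested were lower at the unadjusted threshold, and 154 were lower at the adjusted one. The NK cell marker sum and that of the 9 T cell markers other than Thy1 were lower in the same 3 hearts. The sum of 9 monocyte and macrophage markers overlapped (58193 to 65612 normalized counts in control hearts, 44458 to 71875 in miR-19a/19b hearts). Most of it was Lyz2, and 8 of the 9 differences were negative. Groups were separate for Ly6c2 (control 465 to 818, miR-19a/19b 148 to 268) and Ccr2 (2079 to 2652, 1489 to 1942). These genes were picked after the values were seen, and the other markers on that list overlapped. The part of these cells in the interferon-induced genes was not tested.

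Seen heart by heart, the lists differed in how far they lay from the controls. Relative to the control mean, the 4 receptor chains averaged -0.13, -0.12 and -0.02 on the log2 scale in miR-19a/19b hearts 1, 2 and 3, within the control spread of -0.07 to 0.10 in the last of these only. In heart 3 single chains went opposite ways, with Ifnar1 above every control and Ifngr2 below every control. The 4 kinases averaged -0.09, -0.10 and 0.01, where the controls all rounded to 0.00. The 24 interferon-induced genes averaged -0.94, -0.42 and -0.49, below controls of -0.16 to 0.18. Replicate 1 had the lowest interferon-induced genes by a wide margin, but its receptor and kinase averages were like those of replicate 2.

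**Figure D4:**
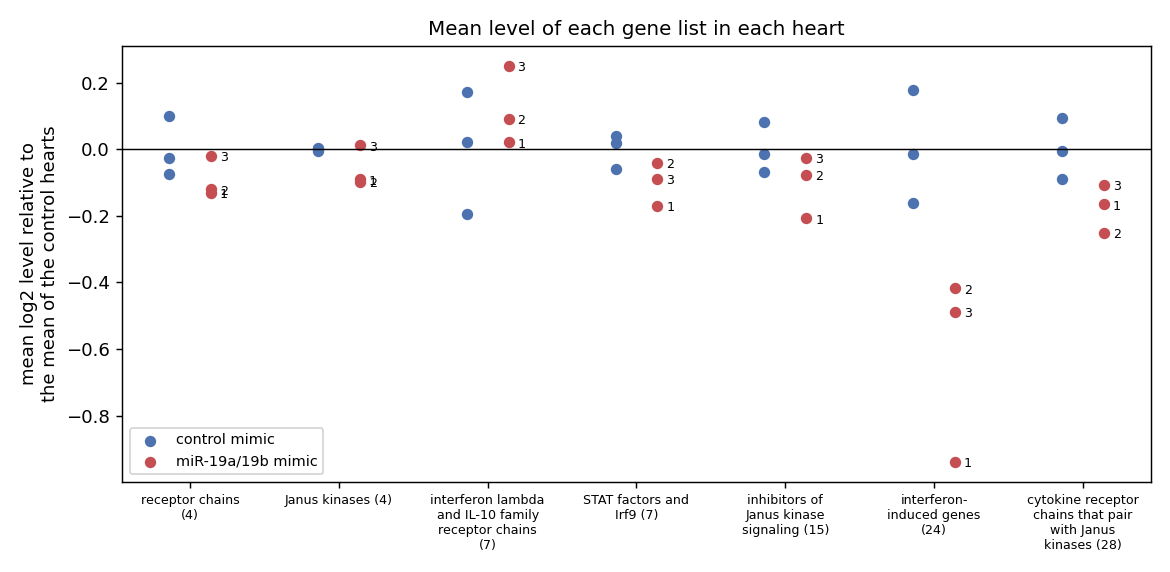
Mean log2 level of each gene list in each heart, relative to the mean of the control hearts (0 line); blue points are control hearts, red points miR-19a/19b hearts numbered by replicate, and the number of genes is in brackets. Averages over the 4 receptor chains and over the 4 kinases stay within 0.13 of the control mean in every heart, though single chains went opposite ways. Averages of the interferon-induced genes in the 3 miR-19a/19b hearts lie between -0.94 and -0.42.

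The receptors for other cytokines that use the same kinases served as a wider setting. Of 7 chains for interferon lambda and the interleukin-10 family, 1 was lower at an unadjusted p-value under 0.05, Il10ra, with 1149 ± 101 and 843 ± 146 normalized counts (SD, n = 3), and the median difference was 0.02. Of 28 tested chains of other receptors that pair with Janus kinases, 2 were lower and 0 higher at that threshold, with a median of -0.15. These were the interleukin-2 receptor genes Il2ra (34.1 ± 4.76 and 17.6 ± 1.30 normalized counts) and Il2rb (125 ± 47.1 and 64.1 ± 11.5), which lymphocytes and NK cells use. In this list 0 genes passed adjustment, and differences were negative for 21 and positive for 7. Group ranges were separate for 5 of the 28, all lower with the miR-19a/19b mimic, where 5.3% of all genes did so with lower values. Averaged over the list relative to the control mean, miR-19a/19b hearts lay at -0.17, -0.25 and -0.11, below controls of -0.09 to 0.09. Lower values than in controls were thus not particular to the interferon receptors and their kinases. At the unadjusted threshold 2.63% of all genes tested were lower, the share to read beside the counts of both lists. Il2rg, whose product carries JAK3, had 369 ± 68.9 and 344 ± 67.6 normalized counts.

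Levels of 3 receptor chains were related to the summed cell type markers of the same heart, relations that were looked at after the values had been seen. Across the 6 hearts Ifngr2 tracked the sum of the 10 cardiomyocyte markers (Pearson r = 0.987, exact permutation p = 0.00278; Spearman rho = 0.943, exact permutation p = 0.0167). Without the 2 hearts farthest from the median of that sum, r was 0.938. These were miR-19a/19b hearts 1 and 3, which leaves the controls and miR-19a/19b heart 2. Ifnar1 ran opposite to the same sum (r = -0.92, exact permutation p = 0.00278; rho = -0.94, exact permutation p = 0.0167) and r was -0.91 without the 2 farthest hearts. Ifnar2 tracked the sum of 6 pan-leukocyte markers (r = 0.921, exact permutation p = 0.00972, and rho = 0.943, exact permutation p = 0.0167). Without the 2 hearts farthest from the median of the leukocyte sum, r was 0.777. Here these were miR-19a/19b hearts 1 and 2, which leaves the controls and miR-19a/19b heart 3. For Ifnar1 and the leukocyte sum r was 0.858, and for Ifngr2 and the leukocyte sum it was -0.92. Among the 16 relations computed, 8 genes against 2 marker sums, the adjusted p of r was 0.0222 for both cardiomyocyte relations, 0.0389 for Ifnar2 and for Ifngr2 with leukocyte markers and 0.151 for Ifnar1 with leukocyte markers. By rho, the adjusted p was 0.0444 for each of these genes with each sum. For Ifnar2 and the cardiomyocyte sum r was -0.74, which did not pass (exact permutation p = 0.0889, adjusted p = 0.197). The 2 sums run against each other in the same libraries. They were picked from the marker lists after the values had been seen, which the adjustment does not cover. Such patterns over the 6 hearts were also common. Of 11608 other genes with a mean of at least 100 normalized counts, 1347 had r over 0.9 with Ifngr2. With Ifnar1 it was 496 genes, and with Ifnar2 367. The relations are therefore not particular to these receptor chains. Within groups, after removal of each group's mean, r with the cardiomyocyte sum was 0.989 for Ifngr2 and -0.92 for Ifnar1 (exact permutation p = 0.0556 for each), and r with the leukocyte sum was 0.901 for Ifnar2 (exact permutation p = 0.0278, the smallest the permutations within groups can give). After adjustment over the 16 relations, the lowest p within groups was 0.111, so none passed there.

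For Ifngr1 and the kinases these relations were not resolved. For Ifngr1, r was -0.45 with the cardiomyocyte sum and 0.748 with the leukocyte sum. Without the 2 farthest hearts, which are not the same pair for both sums, these were -0.99 and 0.0339. Within groups they were -0.71 and 0.757 (exact permutation p = 0.0278 for each, adjusted p = 0.111). For Jak2, r was -0.02 and 0.386, and without the 2 farthest hearts -0.99 and -0.34. For Jak1 and Jak3 with the cardiomyocyte sum, leaving out those 2 hearts moved r from -0.46 to -0.95 and from -0.64 to 0.784. These values therefore depend on whether those hearts are included. Over all 6 hearts, none of the relations of Ifngr1 or the 4 kinases passed adjustment (lowest adjusted p of r 0.189, from the exact permutation test).

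**Figure D5:**
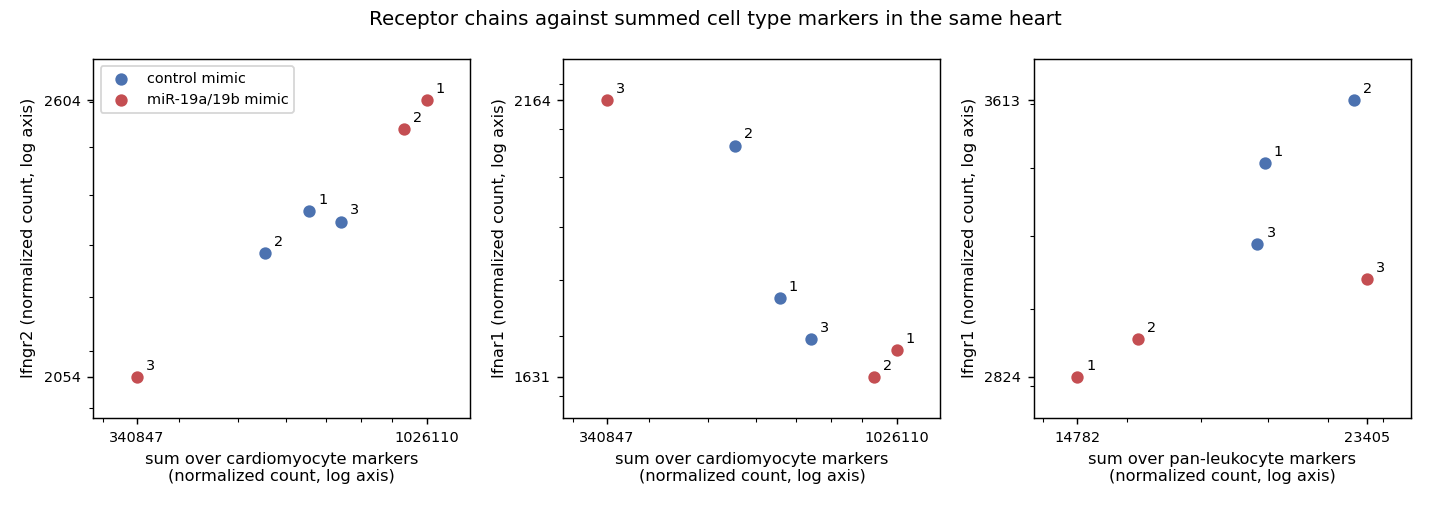
Normalized counts of Ifngr2 and Ifnar1 against the summed cardiomyocyte markers, and of Ifngr1 against the summed pan-leukocyte markers, in the same heart (log axes; tick labels give the lowest and highest values); points are hearts numbered by replicate, blue for control mimic and red for miR-19a/19b mimic. Hearts with a higher cardiomyocyte sum had higher Ifngr2 and lower Ifnar1 (r of 0.987 and -0.92 over 6 hearts), with replicate 3 of the miR-19a/19b mimic at one end and replicates 1 and 2 at the other. For Ifngr1 and the leukocyte sum r was 0.748 and did not pass adjustment (adjusted p = 0.197, exact permutation test). Within groups, no relation passed adjustment.

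Among the 28 pairs of receptor and kinase genes, Ifngr1 with Jak2 had the highest correlation across hearts (r = 0.868, rho = 0.771, exact permutation p = 0.0306 and 0.103) and Ifnar1 with Ifngr2, neighbours on chromosome 16, the lowest (r = -0.88, rho = -0.89, exact permutation p = 0.0111 and 0.0333). After adjustment over the 28 pairs the lowest p was 0.233, so no pair passed. Ifnar1 and Ifnar2 had r = 0.827 and rho = 0.886 (exact permutation p = 0.0417 and 0.0333), and r was 0.697 without the 2 farthest hearts.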

How the data were processed

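RNA-seq libraries of 6 hearts were analysed, 3 for each mimic, grouped by the treatment in the labels. The labels number the hearts as replicates, which the paper calls biological. The authors aligned reads with STAR 2.5.1b and counted them on genes with HTSeq 0.6.0, and the processing notes also name DESeq2 1.10.1 and the build mm9. The deposited signal is a normalized count, the reads on a gene after division by its library's size factor. Multiplied back, 100% of the values gave whole reads in every library (tolerance 0.001). The table also holds the authors' own fold changes and p-values, which were not used. Of its gene identifiers, 25884 occur in GENCODE M21 (GRCm38). Their chromosome is identical for 99.9%, and both start and end for 82.7%, so coordinates are taken as GRCm38 in spite of the build named. Of the 10 genes, 7 had the same start and end.

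The test was limma 3.58.1 (R 4.3.3) with an intensity-trended prior, run on log2(normalized count + 1) for genes with a mean of at least 1, adjusted by the Benjamini and Hochberg method over all of them. Fold changes on this scale understate those of genes with few reads. On simulated reads with 200 genes changed 2-fold, limma recovered 89% of them, with 10 calls at unchanged genes among 15513 tested. The simulation gave all genes the same spread between hearts and left out genes with few reads. It held no differences in tissue make-up between hearts, so the 89% is not the power in these hearts. Single values were tested by exact two-sided permutation, correlations over all orders of the 6 hearts. Alternatives were edgeR 4.0.16, DESeq2 1.42.0 and limma-voom on the recovered reads, other filters and pseudocounts, a replicate block and each heart left out. Replicates of a group had chi-square values per degree of freedom of 10.3 to 135, above sampling noise, so all were counted separately. Intervals for read counts are exact Poisson intervals. Near-identical copies were sought with BLAST 2.17.0 (at least 150 bases at 95% identity), which found only genes that overlap 4 of the 10 in the genome, Gm21970 (Ifnar2), Gm49751 (Ifng), Insl3 (Jak3) and 1700084C06Rik (Tyk2).

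The 10 genes, the gene lists and the tests were chosen with earlier results of these data known. Genes were named from the lists when their unadjusted p-value was under 0.05, but only some of the interferon-induced genes under it were named. Other genes were named by role or because they missed that threshold. These choices were made after the values were seen. The relations to marker sums, also within groups, and the T cell sum without Thy1 were added after seeing the data. Protein sequences were not used here. One item of the pathway lists is not reported here, and list counts leave it out.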

Additional observations from a re-analysis of the deposited data

How the results depend on the processing

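No receptor, kinase or ligand gene passed an adjusted p-value of 0.05 in any of the alternatives. Over all genes, DESeq2's Wald test called 28 lower and 1 higher where limma called 0. Of the 24 interferon-induced genes, 3 were lower at an adjusted p-value under 0.05 in DESeq2's test. Leaving out each heart in turn, the counts ran from 0 to 154 lower and from 0 to 361 higher, the genes of the 9 at an unadjusted p-value under 0.05 from 0 to 2 and their median log2 difference from -0.143 to -0.0397. The largest counts and the lowest median came without miR-19a/19b heart 3, where 14.5% of all genes had an unadjusted p-value under 0.05. Ifnar1 changed sign without control heart 2 (0.0635), miR-19a/19b heart 1 (0.0334) or 2 (0.0531), its lowest value being -0.151, and Ifngr2 without miR-19a/19b heart 1 (-0.0302) or 2 (-0.0121), its highest value being 0.141. The cause was not tested. Replicate numbers did not pair the hearts (correlations of same-numbered hearts -0.01, -0.02 and -0.11), and with the replicate block 0 genes were lower, 0 higher and the median was -0.07. The count of interferon-induced genes ran from 17 to 23 of 24 over the alternatives, and that of the STAT factors and Irf9 from 1 to 2 of 7, with Irf9 lost without control heart 2, control heart 3 or miR-19a/19b heart 1. The 95% intervals of the 8 receptor and kinase genes reach from 0.738-fold to 1.27-fold, and Ifng, at 1 to 2 reads a heart, and Ifnb1, at 6 reads in 1 heart and 0 in the others, are too low for a comparison.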

Other observations

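The promoters of the 10 genes (RefSeq, GRCm38.p6, from 250 bases before to 50 after the start) were searched for the motifs through which the pathway acts on its own targets. TTCNNNGAA, the gamma-activated site, reads the same on both strands and was in 3 of the 10, those of Ifnar1, Ifnar2 and Ifng, and in 8.30% of 32851 promoters. The 3 matches are shown in capitals with their flanks, as the member promoters that hold a motif of the pathway itself. GAAANNGAAA, a core of the interferon-stimulated response element, was searched on both strands and was in 0 of the 10 and in 3.44% of all promoters. No match says only that these letters are not in this window.
Ifnar1, chr16:91485201-91485227, plus strand: gcgggggcgTTCACGGAAggggcgggg
Ifnar2, chr16:91372560-91372586, plus strand: gccaaggccTTCCTGGAAgaagagagt
Ifng, chr10:118440796-118440814, plus strand: tTTCAGAGAAtcccacaag

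Among 11608 other genes with a mean of at least 100 normalized counts, those whose log2 levels over the 6 hearts were most like each gene's were Larp7, Toe1 and Steap3 for Ifnar1, Ripk1, Ctsl and Erlin2 for Ifnar2, Daxx, Pigk and H2-D1 for Ifngr1, and Klhdc1, Pdss2 and Paqr9 for Ifngr2. For the kinases they were Traf6, Tln1 and Slc39a13 for Jak1, Ccl8, Traf3 and Tril for Jak2, Ccdc12, Ostc and Tagln2 for Jak3, and Slc7a2, Ptpro and Wisp1 for Tyk2. Pearson's r lay between 0.979 and 0.999 for these 24 genes, the highest of 11608 values over 6 points for each. The number of genes with r over 0.9 was 1347 for Ifngr2 and 80 for Jak2.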
